A study of Mus musculus with 4 samples.

Results

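Thalamic relay spots were studied in 2 control brain sections profiled by Visium, an assay that counts transcripts as unique molecular identifiers (UMIs) in a grid of spots, each of which can hold several cells or parts of cells. They were defined as the spots of each control library in the top 5% by the summed share of UMIs from Prkcd, Tnnt1, Plekhg1, Rgs16 and Gbx2, among spots with at least 5000 UMIs. This gave 242 members of 4824 kept control spots, and of 11244 kept spots in all 4 libraries: 114 of 2267 in control 1 and 128 of 2557 in control 2. The knockout libraries came from Slco1c1-iCreERT2;Pdcd10fl/fl mice (Pdcd10BECKO, 2 libraries), in which a tamoxifen-inducible Cre driven in brain endothelium removes Pdcd10, also called CCM3. The controls were Pdcd10fl/fl littermates without the Cre (2 libraries). Both groups carried the floxed alleles, and both belong to a design in which 50 µg of 4-hydroxytamoxifen was given on postnatal day 1. The age at analysis is listed as postnatal day 65 for all 4 libraries, controls and knockouts alike. Sample titles and the design text place all mice in normoxia, the treatment field gives hypoxia for knockouts but normoxia for controls, and the protocol of all 4 samples names 12% oxygen for 2 days, so oxygen and genotype cannot be told apart with certainty. Whether replicate libraries stem from different mice is not stated, so the spread between them may be technical.

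Thalamic relay neurons are glutamatergic projection neurons that pass sensory, motor and associative signals to the cortex. They load vesicles mainly with the transporter encoded by Slc17a6, fire in bursts through T-type calcium channels such as that of Cacna1g, and carry pacemaker currents through HCN channels. In the adult mouse thalamus they keep high levels of the Wnt-pathway transcription factors Tcf7l2 and Lef1, while most rodent thalamic nuclei hold few inhibitory cell bodies and receive inhibition from the reticular nucleus.

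The score genes encode protein kinase C delta (Prkcd, chr14:30595353-30626414), slow skeletal troponin T (Tnnt1, chr7:4504569-4515975), a guanine nucleotide exchange factor (Plekhg1, chr10:3740251-3967303), a regulator of G protein signalling (Rgs16, chr1:153740353-153745468) and a homeobox transcription factor of the developing thalamus (Gbx2, chr1:89927962-89931176), in RefSeq's GRCm38.p6. The 250 bases before the annotated start are shown for the 3 score genes whose promoter entry begins at the end of the annotated gene, since these genes define the spots. Sequences are from RefSeq, GRCm38.p6, 5′ to 3′ on the gene's strand, with TATAAA or TTTATA in capitals.
Tnnt1, chr7:4515976-4516225, minus strand: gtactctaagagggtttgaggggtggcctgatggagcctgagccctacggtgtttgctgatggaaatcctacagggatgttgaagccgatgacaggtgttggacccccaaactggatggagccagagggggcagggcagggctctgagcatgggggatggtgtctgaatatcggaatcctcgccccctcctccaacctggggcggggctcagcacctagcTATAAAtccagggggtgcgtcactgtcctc
Rgs16, chr1:153740103-153740352, plus strand: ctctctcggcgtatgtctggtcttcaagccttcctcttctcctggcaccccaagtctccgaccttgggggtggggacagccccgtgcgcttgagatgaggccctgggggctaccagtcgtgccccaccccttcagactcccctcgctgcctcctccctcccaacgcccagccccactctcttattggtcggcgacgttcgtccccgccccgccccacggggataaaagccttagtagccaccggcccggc
Gbx2, chr1:89931177-89931426, minus strand: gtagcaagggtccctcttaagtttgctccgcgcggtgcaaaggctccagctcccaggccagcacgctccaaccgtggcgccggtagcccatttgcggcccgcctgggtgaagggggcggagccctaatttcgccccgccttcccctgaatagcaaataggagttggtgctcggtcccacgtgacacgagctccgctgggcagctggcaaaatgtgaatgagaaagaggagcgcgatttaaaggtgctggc
The TATAAA of Tnnt1 begins 30 bases before the start, and the motif or its reverse complement was found in the 250 bases of 12.98% of 27025 genes. The core bound by TCF and LEF factors, CTTTGA or TCAAAG on the other strand, with no overlap between the motifs, is in none of these windows. It was found in 2 of the 21 score and relay genes that have an entry (Prkcd and Zfhx3, 9.52%), against 14.1% of all genes.

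The libraries held 50148764 to 74467027 UMIs, and the spots of at least 5000 UMIs held 91.5% to 96.2% of them. Members had a median of 11719 UMIs in control 1 and 19640.5 in control 2, against 19087 and 22722 in the other kept spots. All 4 libraries list the same barcodes, which name positions on the slide; 27 of the 2048 barcodes kept in both controls were members in both. Pdcd10 itself was at 94.2 and 86.7 CPM (UMI counts scaled by library total) in the knockout spots that reached the lower control cut-off, against 81.7 and 77.3 CPM in control members, and did not pass the test described below (adjusted p = 0.534). Its 3′ transcript tags, from all cells of a spot, do not test a deletion confined to endothelium.

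The score, which chose the spots and is given without a test, ran over more than an order of magnitude within the members. Scores are given as raw CPM, UMIs scaled to the spot or sum total without the TMM adjustment applied to the CPM of the tests. Cut-offs were 233.2 raw CPM in control 1 and 267.3 raw CPM in control 2. The members just inside had 234.7, 237.6 and 240.4 raw CPM in control 1 and 268.1, 269.05 and 269.3 raw CPM in control 2, and the spots just outside had 229.9, 220.7 and 218.7 raw CPM and 267.1, 267.06 and 263.1 raw CPM. The median member scored 729.1 raw CPM in control 1 and 547.3 in control 2, and the highest scored 4101 and 4526. All 5 score genes were detected in 45 of 114 members of control 1 and 63 of 128 of control 2, and at least 4 in 72 and 98. At the low end, 25 members of control 1 and 2 of control 2 were chosen on 3 or fewer score UMIs, so membership there rests on few counts.

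**Figure D1:**
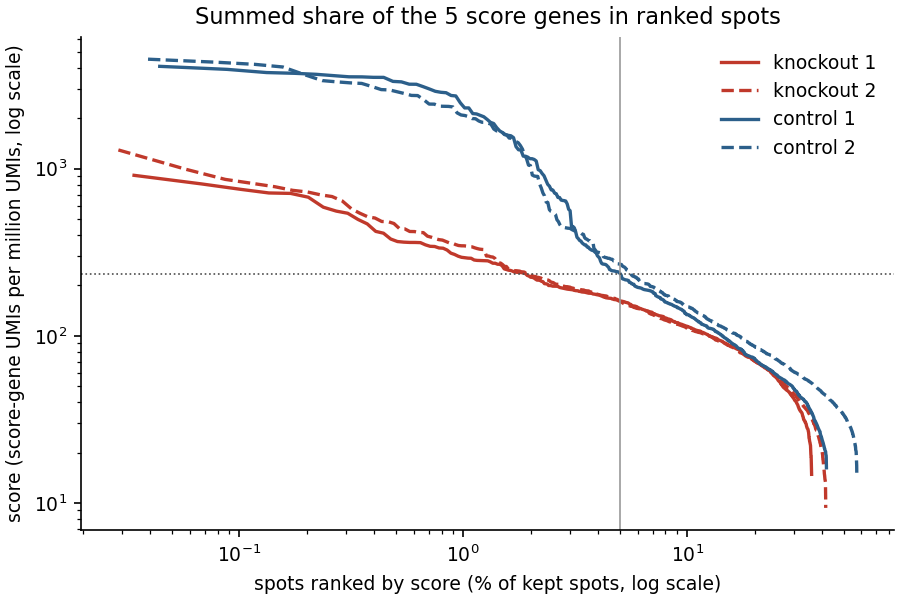
Score of each kept spot (score-gene UMIs, raw CPM, log scale) against its rank in its library (percent of kept spots, log scale; spots with no score UMI are not drawn), one line per library. The vertical line marks 5% and the dotted line the lower control cut-off of 233.2 raw CPM; the control curves reach 4101 and 4526, and the knockout curves end at 912.98 and 1295.

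Of the knockout spots, 56 of 2952 in knockout 1 (1.90%, 95% Wilson interval 1.46% to 2.46%) and 69 of 3468 in knockout 2 (1.99%, 1.58% to 2.51%) reached 233.2 raw CPM, the lower of the control cut-offs. In the controls the rule itself fixed the share at about 5%, so the shares are set side by side without a test. The intervals cover counting error only. The knockout spots that reached it lay near the cut-off. Their median score was 297.2 and 345.4 raw CPM, and a score of 1000 raw CPM or more was found in 0 and 1 of them, against 48 and 51 control members. Score counts were low in many: 35 of 56 and 23 of 69 had 3 or fewer score UMIs. The sections' planes and the positions of the spots were not analysed here, so how much thalamus each section holds was not tested.

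The members were not of 1 kind. Leiden clustering of the 242 members, centred per library, gave 4 clusters, each present in both controls, which are described without a test. The largest, 70 spots, led with Prkcd, Rab37, Eps8l2 and Tnnt1, and its 20 other relay genes (a list of genes known from thalamic relay neurons, without the score genes) summed to 6320 raw CPM. A cluster of 43 spots led with Necab1, which encodes a calcium-binding protein, and Cox6a2, a muscle-type cytochrome oxidase subunit. Its relay genes summed to 4824 raw CPM. Calb2 and Slitrk6 also ranked high in it against all other members pooled. Slitrk6, however, was at 67.8 raw CPM in this cluster and 69.5 raw CPM in the Prkcd-led one. Calb2, the calretinin gene, was at 788 raw CPM in the Necab1-led cluster and 156 raw CPM in the Prkcd-led one. Tnnt1 was at 166 and 515 raw CPM in the same order. Another cluster of 63 spots led with the neuropeptide genes Pth2 and Calca and also carried Slc32a1, Sst, Pvalb and Gad2 of inhibitory neurons; its relay genes summed to 1971 raw CPM. The last cluster, 66 spots, led with Igf2, Igkc, Slc22a6 and Slc13a4, genes known from the meninges and brain borders or from plasma cells, and its relay genes summed to 1456 raw CPM. The last clusters had median scores of 359.3 and 344.8 raw CPM, near the cut-off, against 2742 and 1136 raw CPM in the Prkcd-led and Necab1-led ones. Since Prkcd, Tnnt1 and Plekhg1 chose the spots, their place among the 10 leading genes of the Prkcd-led cluster does not bear on the name thalamic relay, and Rab37 was the only gene of the relay list among those 10. The summed relay genes were higher in the Prkcd-led and Necab1-led clusters than in the other 129 spots. No gene of the relay list was among the 10 leading genes of the Necab1-led cluster or of the clusters of those other spots.

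The correlations among the score genes describe spots selected on their own sum and support nothing beyond that. Over control members, Prkcd correlated with the sum of the other score genes at r = 0.79 and 0.83, Tnnt1 at 0.67 and 0.85, Plekhg1 at 0.75 and 0.81, and Rgs16 at 0.73 and 0.76, but Gbx2 at 0.31 and 0.28 (114 and 128 spots of 1 library each, which share its depth, and whose scores were truncated at the cut-off). Among the knockout spots that reached the cut-off, the values were −0.49 and 0.11 for Prkcd, −0.51 and −0.47 for Tnnt1, −0.18 and 0.31 for Plekhg1, −0.35 and 0.23 for Rgs16, and −0.0080 and −0.070 for Gbx2 (56 and 69 spots). The score and the summed share of the 20 other relay genes had r = 0.85 and 0.86 over the members. Gbx2 was at 247 raw CPM in the Necab1-led cluster and 170 raw CPM in the Prkcd-led one, the reverse of Prkcd, at 304 and 1120 raw CPM.

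Members were first compared with the rest of the same sections. UMIs were summed per library over members and over other kept spots and compared with edgeR's quasi-likelihood test with the library as a block. Of 15701 genes tested, 1435 were higher in members (9.14%) and 1484 lower (9.45%) at an adjusted p under 0.05. In such sums, fewer cells of a type and less RNA per cell cannot be told apart. The score genes, fitted without a p, were at 389.7 and 476 CPM (Prkcd), 207 and 219 CPM (Tnnt1), 245 and 194 CPM (Plekhg1), 208 and 169 CPM (Rgs16) and 149.9 and 119 CPM (Gbx2) in members of control 1 and 2, against 7.59 and 13.4, 3.58 and 6.66, 6.35 and 9.27, 7.35 and 9.16, and 1.19 and 2.53 CPM in the other spots.

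All 20 other relay genes rose, with a median log2 fold change of 2.71 against −0.03 over all genes tested. The list was drawn up with earlier results of these data known, so its rise describes the spots and is not independent support for their name. Their summed level was 3683 and 3601 raw CPM in members against 642 and 709 raw CPM in other spots. Synpo2, which encodes an actin-binding protein, rose most: it was at 119.9 and 122 CPM in members against 3.29 and 6.40 CPM in other spots (log2 fold change 4.66, SE 0.19, adjusted p = 4.5e-10). Both libraries gave like values for each class, and the classes lay far apart. Tcf7l2 (chr19:55741797-55933659) was at 548 and 536 CPM against 62.9 and 98.8 CPM (log2 2.77, SE 0.14, adjusted p = 3.8e-09). Lef1, of the same family of factors, was at 79.5 and 75.6 CPM against 4.72 and 6.59 CPM. Ramp3, a subunit that modifies calcitonin-family receptors, was at 199 and 223 CPM against 16.5 and 18.3 CPM. Vav3, a guanine nucleotide exchange factor (8.93-fold), Amotl1 (8.47-fold) and Ptpn3, a protein tyrosine phosphatase gene (8.06-fold), rose as well. The smallest rise of the list was that of Kcnc2, which encodes a fast potassium channel, at 241 and 234 CPM against 87.2 and 84.9 CPM (log2 1.46). Members and other spots did not overlap for any gene of this list. The share of all genes without overlap was not computed for this comparison, so the lack of overlap is not read as a result about the list. The knockout comparison below has other sums, and its shares of 26.9% upward and 27.4% downward do not stand in for it.

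**Figure D2:**
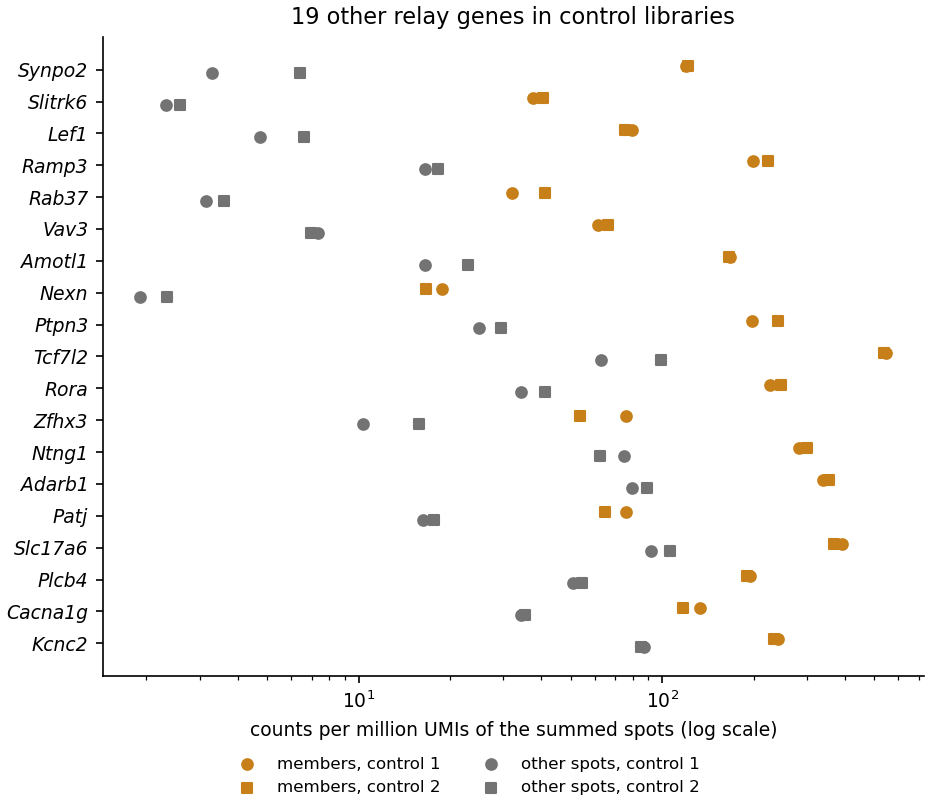
CPM (log scale) of 19 of the 20 other relay genes in the summed members (orange) and the summed other spots (grey) of control 1 (circles) and control 2 (squares), ordered by fold change. Every gene drawn is higher in members in both libraries, from Synpo2 (119.9 and 122 against 3.29 and 6.40 CPM) to Kcnc2 (241 and 234 against 87.2 and 84.9 CPM).

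In spots thinned to 5000 UMIs each, Tcf7l2 had a UMI in 80.7% and 83.6% of members against 20.7% and 28.2% of other spots. Unthinned, the shares were 88.6% and 92.2% against 36.2% and 57.2%. Synpo2 had one in 42.1% and 40.6% of thinned members against 2.14% and 2.96% of other spots, and Slitrk6 in 21.9% and 14.8% against 1.25% and 1.56%. The choroid plexus transcript Ttr, which relay neurons lack, had a UMI in 0.877% and 2.34% of thinned members, below its share of 4.60% and 9.18% in the other spots, and the relay transcripts stood well above that level.

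Of 17 transcription factors of the thalamus 12 rose, 2 fell and 3 did not pass (median log2 1.07). Shox2, a homeobox factor needed for thalamic relay neuron firing properties in mice, was at 108 and 126 CPM in members against 6.31 and 8.06 CPM in other spots (log2 4.02, SE 0.14, adjusted p = 9.0e-11). Zic1, a zinc-finger factor of the dorsal midline, was at 271 and 247 CPM against 11.1 and 17.5 CPM (log2 4.19, SE 0.16). Rora (log2 2.65), Foxp2 (2.48), Lhx9 (2.22) and Sox2 (1.07) also rose. Mef2c, a cortical activity-linked factor, fell to 92.0 and 101 CPM against 252 and 240 CPM in other spots, and Etv1 fell by 0.40 on the log2 scale.

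Among genes restricted to some thalamic nuclei, 9 of 15 rose, 3 fell and 3 did not pass. Slitrk6, a synaptic adhesion receptor, was at 37.6 and 40.4 CPM in members against 2.32 and 2.59 CPM in other spots. Calb2 rose 2.53-fold to 447 and 446 CPM, against 171 and 181 CPM in other spots. Calb1, the calbindin gene, rose 1.67-fold and Necab1 1.47-fold, while Tac1, the substance P precursor, fell to 20.9 and 11.9 CPM against 59.5 and 62.7 CPM. By size over all genes, the other large rises with no list membership among relay genes were Adamts15, a matrix protease (9.86-fold), and Calca, the calcitonin gene-related peptide precursor, at 37.6 and 62.5 CPM against 7.54 and 6.08 CPM; Calca was also a leading gene of the Pth2-led cluster.

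The genes behind the electrical behaviour of relay neurons moved in both directions. Of 19 calcium and pacemaker channel genes 8 rose, 6 fell and 5 did not pass. Cacna1g was at 133 and 117 CPM in members against 34.2 and 35.2 CPM in other spots (log2 1.84, SE 0.12, adjusted p = 4.6e-08). Hcn4 rose 5.23-fold, to 25.8 and 23.8 CPM against 4.18 and 5.10 CPM, and Hcn2 rose 2.11-fold. Cacng3, an AMPA receptor auxiliary subunit, fell 2.34-fold and Cacna1e, an R-type calcium channel, 1.98-fold. Of 42 potassium and sodium channel genes 11 rose and 11 fell: Kcnd2 (2.12-fold) and Kcnc1 (1.90-fold) rose, and Kcnh3 and Kcnj4 fell by 2.02 and 2.04 on the log2 scale.

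Glutamate genes changed by subtype, 9 of 27 up and 8 down. Slc17a6, the vesicular transporter of subcortical glutamate neurons, was at 392.5 and 368 CPM in members against 92.0 and 106 CPM in other spots (3.84-fold higher). Slc17a7, its cortical counterpart, was at 197 and 309 CPM against 693 and 659 CPM (2.70-fold lower). The metabotropic receptor Grm4 (5.58-fold) and the NMDA receptor subunits Grin2c (3.36-fold) and Grin2d (3.55-fold) rose, and the AMPA receptor subunit Gria2 fell 1.91-fold while Gria4 rose 1.68-fold. Of 14 GABA receptor genes 5 rose and 3 fell, with rises of Gabbr2, Gabra4 and Gabrd, the delta subunit of extrasynaptic receptors (65.5 and 83.5 CPM against 33.2 and 31.3 CPM), and a fall of Gabra5 (2.09-fold). Among 25 tested neuromodulator receptor genes, 7 rose and 9 fell: Adra1b (4.28-fold), Chrna4 (2.69-fold) and Hrh3 (2.17-fold) rose, and the cannabinoid receptor Cnr1 (3.87-fold) and the muscarinic receptor Chrm1 (2.86-fold) fell.

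Around Prkcd, 4 of 25 phospholipase C and protein kinase C genes rose and 7 fell. Plcb4, a phospholipase C, rose to 195 and 190.0 CPM against 50.8 and 54.4 CPM, and Prkch rose 7.61-fold, while Plcb1 (2.37-fold), Prkcb (2.09-fold) and the postsynaptic scaffold Homer1 (2.996-fold) fell. Besides Rgs16, 4 of 16 RGS genes rose, with Rgs3 (3.35-fold) and Rgs8 (2.54-fold) in front, and 4 fell, with Rgs14 (2.84-fold) in front. Of 41 axon guidance and synaptic adhesion genes 11 rose and 16 fell; Ntng1, netrin G1 on thalamocortical axons, rose 4.26-fold and the neurexin gene Nrxn3 2.14-fold, and Slit2 and Epha5 fell 4.79-fold and 2.03-fold.

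Lists of other regions differed in their counts. Of 10 hippocampal genes 6 fell and 2 rose, of 10 striatal genes 4 fell and none rose, of 9 tested midbrain genes 4 fell and none rose, and of 10 choroid plexus and ependymal genes 1 fell and none rose (median log2 0.091). Of 14 cortex markers 10 fell and 2 rose, with Lamp5 at 22.3 and 14.6 CPM in members against 104.9 and 97.0 CPM in other spots, and Fezf2 and Neurod6 5.64-fold and 5.61-fold lower. The largest falls by the naming rule were Ttr (15.96-fold), Vip (11.4-fold), Mpped1 (7.24-fold), Cort (6.57-fold), Nr4a2 (5.88-fold), Ccn3 (5.87-fold), Lamp5, Fezf2, Neurod6 and Egr4 (5.27-fold); Vip and Cort are peptide genes of cortical interneurons. Of 12 genes of inhibitory neurons and the reticular nucleus 9 fell and none rose: Gad1 was at 143 and 137 CPM against 289.6 and 284 CPM, Sst at 219.6 and 158 CPM against 696 and 571 CPM, and Gad2 fell 1.42-fold. All but 1 of the 15 immediate early genes, transcribed within minutes of neuronal activity, fell: Junb was at 25.8 and 23.4 CPM against 134 and 115 CPM, Egr1 at 112 and 83.5 CPM against 339 and 304 CPM, and Arc fell 4.74-fold.

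Myelin and astrocyte genes were mostly higher in members, and most microglial genes did not pass: 1 of 10 homeostatic genes and 2 of 14 tested genes of activated microglia and macrophages rose. Of 16 myelin genes 15 rose, among them Mobp (1.85-fold), Trf (1.73-fold) and Mbp (1.62-fold), and their summed level was 18847 and 17891 raw CPM in members against 9090 and 12881 raw CPM in other spots, with no gene at 0. Of 16 astrocyte genes 14 rose, with Slc6a11, a GABA transporter (2.34-fold), Agt, angiotensinogen (2.46-fold), Kcnj10 (2.07-fold) and Gfap (2.06-fold), and a summed level of 6378 and 6691 raw CPM against 3678 and 4765 raw CPM. Gfap was uneven over the member clusters. It was at 64.3 and 55.8 raw CPM in the Prkcd-led and Necab1-led clusters, near the 55.7 and 71.0 CPM of other spots. In the Pth2-led and Igf2-led clusters it was at 105.8 and 301 raw CPM. The libraries differed in the Igf2-led cluster, with Gfap at 580 raw CPM in control 1 and 195 raw CPM in control 2. Agt was at 327, 368, 367 and 259 raw CPM in the same order of clusters. The part of these other cells in the neuronal differences was not tested. When the members were limited to those with a score of at least 1000 raw CPM, a limit chosen after the scores were seen, all 20 relay genes were higher and 3 of 16 myelin genes passed, with a median log2 of 0.32 over the myelin list against 0.69 in all members. Mbp, which did not pass there, was at 5554 and 7277 raw CPM in these spots against 3427 and 5485 raw CPM in the other spots.

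**Figure D3:**
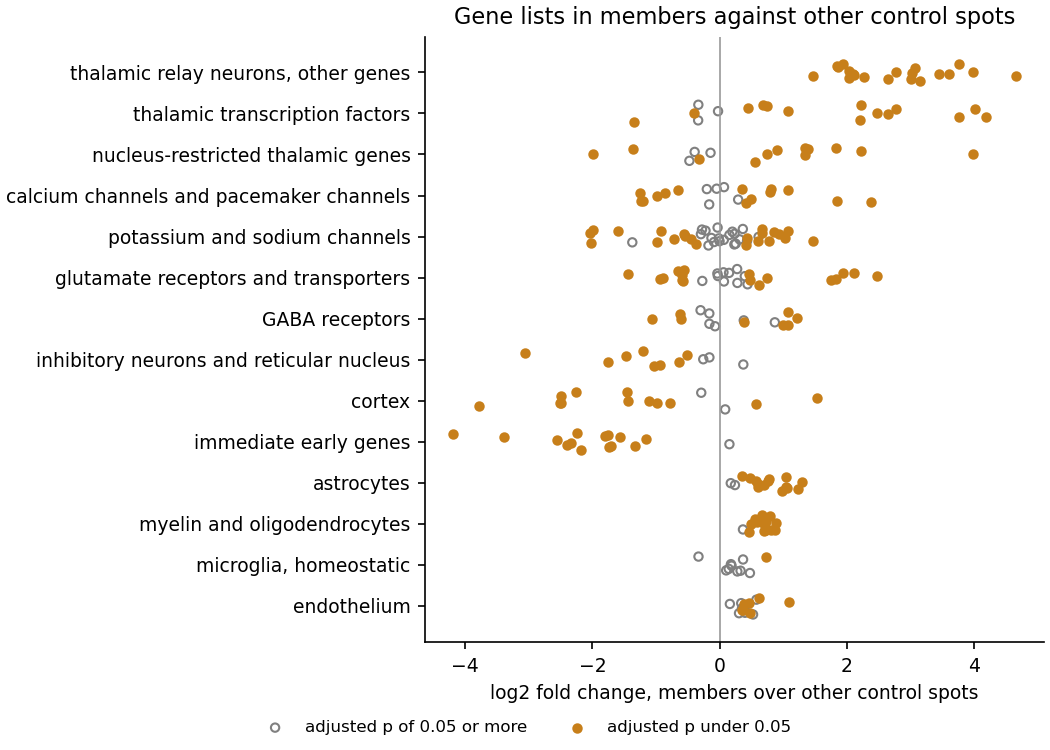
Log2 fold change of each tested gene, members over other control spots, in 14 of the gene lists (rows). Filled points passed an adjusted p of 0.05 and open points did not, and 1 gene at 0 in a sum (in the inhibitory list) is left out; relay, astrocyte and myelin genes lie above 0, and most cortex and immediate early genes lie below 0.

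The design of the study asks what Pdcd10 loss in endothelium does to the brain, and for these spots that question was put to the knockout spots reaching 233.2 raw CPM, against control members (edgeR's quasi-likelihood test on 4 sums of 631064 to 2508173 UMIs). Of 11007 genes tested, 733 were higher in the knockout (6.66%) and 711 lower (6.46%); the libraries of the groups lay apart for 26.9% of genes upward and 27.4% downward.

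Serpina3n, an acute-phase protease inhibitor of reactive astrocytes, was at 583 and 615 CPM in knockout spots against 14.5 and 19.7 CPM in control members (log2 5.08, SE 0.17, adjusted p = 1.8e-15). All 13 tested reactive astrocyte genes rose (median log2 2.40 against 0.00078 over all genes), among them Gfap at 659 and 514 CPM against 162 and 112 CPM, Vim (7.53-fold), C4b (5.27-fold), S100a6 (6.96-fold) and Lcn2 (20.8-fold). Of 14 genes of activated microglia and macrophages 12 rose, with Capg (12.4-fold), Gpnmb (13.6-fold), Spp1 (7.46-fold) and C1qc (2.55-fold), while of 9 homeostatic microglia genes 3 fell and none rose, P2ry12 among them, at 11.2 and 17.7 CPM against 47.7 and 47.9 CPM. Control members held only 4 and 3 UMIs of Lcn2, 5 and 8 of Capg and 4 and 4 of Gpnmb, so the size of these folds is uncertain. Interferon-response genes rose in 8 of 11 cases, with H2-K1, H2-D1 and B2m of antigen presentation 3.38-fold, 3.43-fold and 2.28-fold higher. Outside these spots the genotypes differed as well. Reactive astrocyte genes summed to 2009 and 2007 raw CPM in the other knockout spots against 284 and 292 raw CPM in the other control spots.

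Of 15 endothelial genes 11 rose and 1 fell. Cldn5, a tight junction gene, was at 180.4 and 206 CPM in knockout spots against 60.0 and 54.8 CPM in control members, Ly6a rose 3.81-fold, the flow-responsive factor Klf2 2.06-fold, and Itm2a fell 3.54-fold. Slco1c1, the gene whose regulatory sequence drives the Cre, was at 151.7 and 149 CPM against 65.1 and 54.0 CPM. The other large rises by the naming rule were Penk (20.3-fold), Cdkn1a (15.3-fold), A2m (11.6-fold), Fcgr2b (10.4-fold), Pglyrp1 (9.75-fold), Ctla2a (8.59-fold) and Anxa2 (8.003-fold). The fold of Fcgr2b rests on 5 and 10 UMIs in control members. The endothelial list was also higher outside these spots, at 1247 and 1248 raw CPM summed in the other knockout spots. In the other control spots it was at 540 and 559 raw CPM.

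Myelin genes fell in 15 of 16 cases: Mbp was at 3238 and 2396 CPM in knockout spots against 7018 and 7819 CPM in control members, and Mag and Mog were 5.09-fold and 5.03-fold lower. Opalin (10.1-fold), Prr18 and Ugt8a, also oligodendrocyte genes, were among the 10 largest falls. Pth2 was at 0 and 2 UMIs in the knockout sums, against 114 and 34.6 CPM in control members, of which it marked 1 cluster, and no fold is given for so few counts. Rab37 and Cox6a2, which were among the leading genes of member clusters, and Adamts15 were also among these falls. The myelin list was also lower outside these spots, at 5637 and 4083 raw CPM summed in the other knockout spots. In the other control spots it was at 9090 and 12881 raw CPM.

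Relay genes were lower in the knockout spots, whose median scores of 297.2 and 345.4 raw CPM lay below the 729.1 and 547.3 raw CPM of control members; the part of the score in this difference was not tested beyond a comparison within score bands. Of the 20 other relay genes 16 fell and none rose (median log2 −1.13), with summed levels of 1707 and 2219 raw CPM against 3683 and 3601 raw CPM. Ramp3 was at 62.3 and 70.6 CPM in knockout spots against 207 and 227 CPM in control members (log2 −1.69, SE 0.15, adjusted p = 5.5e-08), and Lef1 at 25.5 and 20.9 CPM against 82.4 and 76.9 CPM. Ptpn3 fell 3.27-fold, Adarb1 2.41-fold, Ntng1 2.39-fold, Slc17a6 1.49-fold and Zic1 3.92-fold. Tcf7l2 did not pass: it was at 356 and 543 CPM against 568 and 545 CPM (log2 −0.29, adjusted p = 0.225). Inhibitory genes were higher in 5 of 11 cases and lower in none, and the striatal list in 4 of 7 with 1 lower, and astrocyte genes summed to 9314 and 7987 raw CPM in knockout spots against 6378 and 6691 raw CPM in control members; the part of these cells in the relay differences was not tested. Of 19 calcium and pacemaker channel genes 3 fell and 2 rose, of 26 tested glutamate genes 8 fell and 1 rose, of 13 GABA receptor genes 3 fell and 1 rose, and of 18 neuromodulator receptor genes 3 fell and 2 rose. Over all genes 6.66% were higher and 6.46% lower in the knockout, and the rises in these lists are not named here. Hcn2 (3.20-fold), Hcn4 (2.93-fold), Grin2c (3.01-fold), Gabrd (4.32-fold) and Chrna4 (3.50-fold) were among the falls. Of these, Hcn2 passed both under 500 and at 500 to 1000 raw CPM of score (log2 −1.43 and −1.67) and Chrna4 under 500 (log2 −1.08), while Grin2c and Gabrd passed in neither. Hcn4 was at 25.9 and 17.5 raw CPM in knockout spots against 18.0 and 18.6 raw CPM in control members at 500 to 1000 raw CPM, from 3 to 5 UMIs each.

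At matched scores no relay gene passed. Among spots under 500 raw CPM (47 and 55 knockout spots, 46 and 62 control members) the 20 relay genes summed to 1383 and 1733 raw CPM in knockouts against 1423 and 1813 raw CPM in controls. Among spots of 500 to 1000 raw CPM (9 and 13 against 20 and 15) they summed to 3146 and 3602 raw CPM against 3109 and 3169 raw CPM. In each band 0 of 18 tested relay genes passed (median log2 −0.17 and 0.01). Over all genes, 543 of 9399 passed under 500 raw CPM (2.89% higher, 2.88% lower). At 500 to 1000 raw CPM 356 of 5681 passed (2.57% higher, 3.7% lower). With 18 genes, 0 passing lies near these shares and does not set the relay genes apart from the rest. The glial differences stayed: reactive astrocyte genes rose in 11 of 13 and 7 of 7 cases, and myelin genes fell in 15 and 14 of 16. The score genes set these bands, so their levels only describe the spots, and not all of them are given here. In the 500 to 1000 band, with 9 and 13 knockout spots, Tnnt1 was at 51.9 and 6.98 raw CPM in knockouts against 119 and 112 raw CPM in controls. Gbx2 was at 190.1 and 199 raw CPM against 198 and 156 raw CPM. The bands were chosen after the scores were seen.

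**Figure D4:**
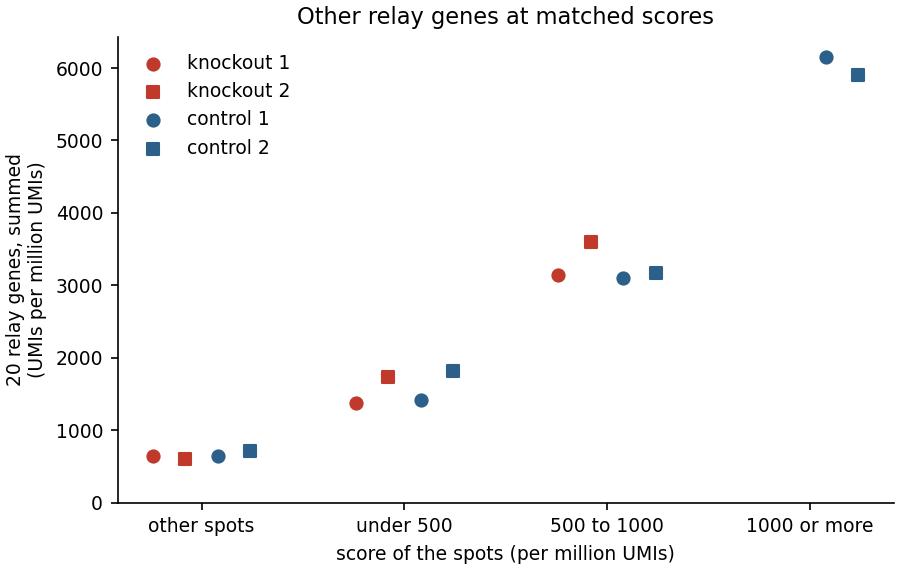
Summed level of the 20 other relay genes (raw CPM) in spots grouped by score, for knockout 1 and 2 (red) and control 1 and 2 (blue). Knockout and control points lie side by side under 500 and at 500 to 1000 raw CPM, and the group at 1000 or more, at 6154 and 5902 raw CPM, holds control spots; the single knockout spot with such a score is not drawn.

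Choosing spots by the 20 other relay genes, the top 5% of each library, left the score genes free. These spots shared 65.8% and 67.2% of the control members, and 37.5% and 52.2% of the knockout spots reaching the cut-off (14.2% and 20.7% of the knockout spots chosen this way). In them the score genes summed to 95.5 and 153 raw CPM in knockouts against 1010 and 1040 raw CPM in controls, lower in both knockouts than in both controls. The spots were not matched on relay level: the relay genes that chose them summed to 1699.9 and 1989 raw CPM in knockouts against 3709 and 3771 raw CPM in controls, and the cut-offs were 1394 and 1502 against 1836 and 1815 raw CPM.

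The genotype difference in these spots was set against that in all other spots of the same sections, as an interaction with the library as a block. Of 16628 genes, the log2 ratio of knockout over control was higher in the chosen spots than in the others for 49 (0.295%) and lower for 73 (0.439%). Such a call can come from either class of spots: Egr1 had a log2 ratio of −0.28 in the chosen spots against −2.31 in the others, and Fbln5 1.94 against 3.29. The other spots themselves differed in regional genes between genotypes: pituitary genes summed to 6.85 and 7.06 raw CPM in knockouts against 178 and 83.0 raw CPM in controls, and striatal genes to 444 and 464 raw CPM against 249.6 and 237 raw CPM. The part of the tissue included in the interaction was not tested. No myelin, astrocyte, microglial, interferon, endothelial or mural gene of the lists passed, and of the reactive astrocyte genes S100a10 (log2 1.30) and Fbln5 (log2 −1.43) did. Over all genes 0.734% passed in either direction, and on simulated data the test recovered 1% of genes changed 2-fold. These counts therefore cannot decide whether the glial and vascular differences above differ from those of the rest of the sections. Of the 20 relay genes 13 were lower. Over control members their summed share went with the score (r = 0.85 and 0.86). A score of 1000 raw CPM or more was found in 48 and 51 control members against 0 and 1 knockout spots. The part of the score in this interaction was not tested beyond the score bands, where 0 genes passed downward. Ramp3 was at 59.3 and 68.1 CPM in knockout spots against 203 and 228 CPM in control members, and at 23.2 and 22.1 CPM against 16.9 and 18.8 CPM in other spots (interaction log2 −2.08, SE 0.18, adjusted p = 1.9e-04). Lef1 (−2.08), Ptpn3 (−1.66), Stum (−1.89), Cpne7 (−1.79) and Vwc2 (−1.70) were the other large ones downward. Tcf7l2 did not pass (log2 0.85, adjusted p = 0.110).

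Of 15 immediate early genes 4 passed upward and none downward. Junb was at 51.7 and 39.5 CPM in knockout spots against 26.3 and 23.9 CPM in control members, while in other spots it was at 44.2 and 42.2 CPM against 138 and 118 CPM (interaction log2 2.38, SE 0.23, adjusted p = 4.2e-04). Egr1 was at 88.2 and 75.1 CPM against 114 and 85.4 CPM in these spots, and at 69.6 and 62.5 CPM against 349 and 312 CPM in the others (log2 2.04). Both genes were lower in knockouts than in controls outside the chosen spots. Penk (log2 2.42), a striatal opioid peptide gene, Meis2 (2.28), Nts (2.03), Egr3 (1.93) and the striatal Rgs9 (2.49) were also upward; Gad1 was too (0.91). The interaction rests on few libraries: leaving out each library in turn left 5 to 12 genes upward and 6 to 19 downward, and within the score bands 0 to 2 genes passed upward and 0 downward.

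**Figure D5:**
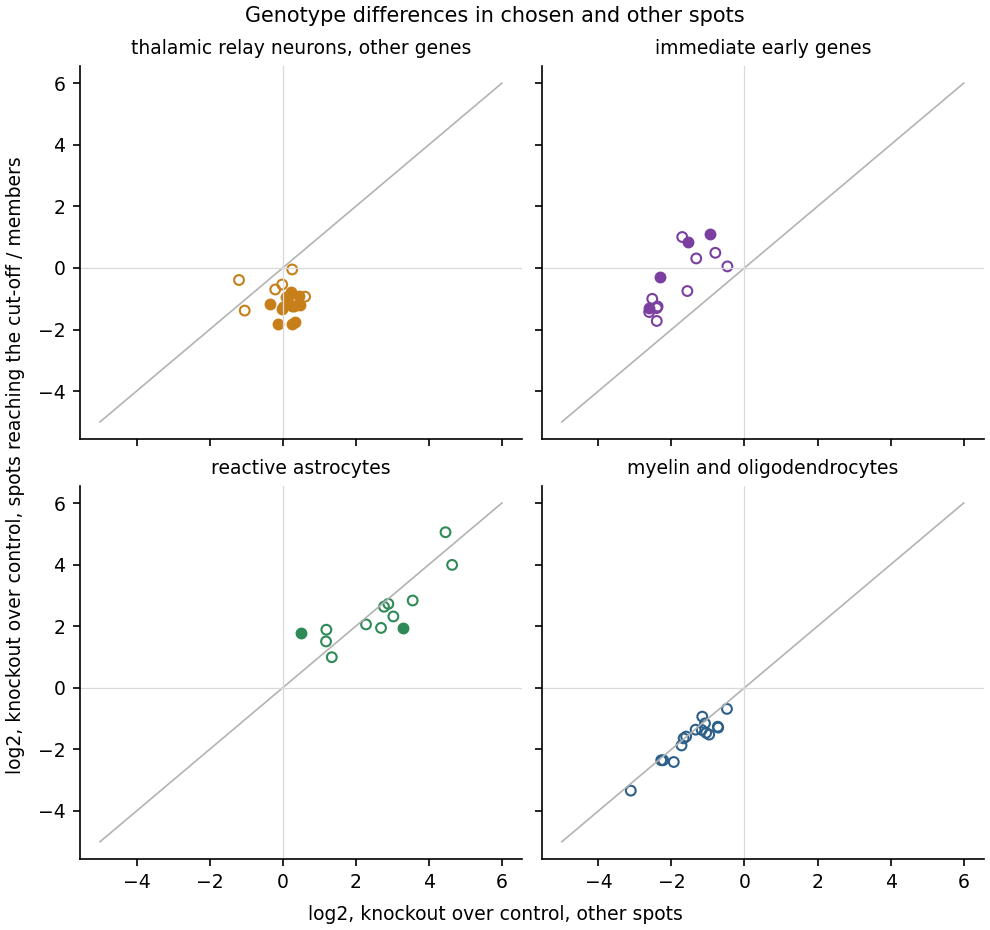
Log2 ratio of knockout over control in the spots reaching the cut-off against control members (vertical) and in all other spots (horizontal), one point per gene of 4 lists; filled points passed the interaction at an adjusted p of 0.05, the diagonal marks equal differences, and genes at 0 in any sum are left out (1 relay, 1 immediate early and 3 reactive astrocyte genes). Most relay genes lie below the diagonal, immediate early genes lie above it, and myelin and most reactive astrocyte genes lie along it.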

How the data were processed

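The deposited files hold UMI counts per gene and barcode for 4 Visium libraries, 32285 genes each; per the submitters' processing notes the authors used Space Ranger and mm10, with versions not given in the sources used here. Spots of at least 5000 UMIs were kept, with no doublet caller, and clusters were made with scanpy 1.11.5. Counts were summed per library and class and tested with edgeR 4.0.16 in R 4.3.3 (TMM, Benjamini-Hochberg, adjusted p under 0.05), with the library as a block for members against other spots and for the interaction, and none for knockout against control. CPM were scaled separately for each comparison. Spots were not treated as replicates. The newer quasi-likelihood method of edgeR was chosen after the older one gave an infinite prior for 2 of the comparisons. Members and gene lists were chosen with earlier results of these data known, and score bands and relay-chosen spots were added after the data were seen. Named genes were the 12 largest rises and 10 largest falls (members), the 10 each way (genotype, groups not overlapping) and the 6 each way (interaction) among called genes with a mean of at least 20 CPM, without predicted symbols, plus list members: up to 5 with the smallest p in each direction, with others named by their values. Replicate numbers did not pair the libraries (correlation of same-numbered deviations −0.009 in chosen and −0.097 in other spots). Tested on simulated data, members against other spots recovered 49% of 200 genes changed 2-fold, knockout against control 55.5% and the interaction 1%; at 4-fold the shares were 76%, 94.5% and 59%. DESeq2 1.42.0, other scalings, filters, cut-offs and scores, and leaving out each library were tried. A few gene-level values are left out and not reported here.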

Additional observations from a re-analysis of the deposited data

Results flagged for a closer look

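The genotype difference in the chosen spots differed from that in the other spots, by the test of the interaction itself, for 49 genes upward and 73 downward. Upward, the named genes were Penk (log2 2.42), Junb (2.38), Meis2 (2.28), Egr1 (2.04), Nts (2.03) and Egr3 (1.93). Downward they were Lef1 (log2 −2.08), Ramp3 (−2.08), Stum (−1.89), Cpne7 (−1.79), Vwc2 (−1.70) and Ptpn3 (−1.66). The knockout spots scored lower than the control members, and the part of that in these values was not tested beyond the score bands.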

How the results depend on the processing

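Members against other spots (1435 higher, 1484 lower) gave 690 and 649 genes with DESeq2, 674 and 624 at a minimum of 10000 UMIs, 630 and 454 with the top 10%, 225 and 147 after thinning to 5000 UMIs, and 930 lower without Rgs16 in the score. Knockout against control (733 higher, 711 lower) gave 249 and 237 with DESeq2, 380 and 317 with the top 2.5%, 1120 higher with the top 10%, 340 and 309 after thinning, 1251 and 1191 with the top 5% of each knockout, 272 and 271 under 500 raw CPM, 146 and 210 at 500 to 1000, and 1119 and 1308 in spots chosen by the other relay genes. With the replicate block it gave 814 and 778. The interaction (49 higher, 73 lower) gave 158 and 203 with the older quasi-likelihood method, 30 higher at 1000 UMIs, 11 and 6 with the top 2.5%, 4 and 6 with the top 10%, 3 and 11 after thinning, 32 higher without Prkcd, 31 higher without Plekhg1, 19 and 25 without Gbx2, 184 and 289 with the top 5% of each knockout, 0 and 0 under 500 raw CPM, 2 and 0 at 500 to 1000, and 633 and 661 in relay-chosen spots. Leaving out 1 library gave 5 to 12 higher and 6 to 19 lower, and without the library block 62 and 90. The share of knockout 1 was 3.13% at 1000 UMIs, 0.271% with the top 2.5%, 7.28% with the top 10% and 1.46% at the higher cut-off. That of knockout 2 was 2.71% at 1000 UMIs, 2.69% at 10000, 0.317% with the top 2.5%, 7.01% with the top 10%, 2.88% without Rgs16, 2.57% after thinning and 1.47% at the higher cut-off. Between genotypes, Tcf7l2 turned to 0.11 with the top 2.5%, 0.018 under 500 and 0.60 at 500 to 1000 raw CPM, Slc17a6 to 0.046 at 500 to 1000, and Pdcd10 to −0.12 with the top 10%, −0.0215 without Prkcd and −0.048 with the top 5% of each knockout. The interaction of Pdcd10 turned to −0.072 with the top 10% and −0.0163 with the top 5% of each knockout. The causes were not tested. Mbp was not called in members at 10000 UMIs, with the top 2.5%, after thinning or at scores of at least 1000.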
